A study of Homo sapiens with 38 samples.

Results

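Shef6, a human embryonic stem cell line, was sequenced in the naive state in both experiments of the series, and the libraries compared here are the 4 that were titled as serum-adapted naive cells in PXGL medium at day 0 on Geltrex, out of 38 libraries in all. The first experiment (Ex1) gave 2 of them and the second experiment (Ex2) gave the other 2, chosen by their titles and by the experiment named in their labels. The cells of both groups had been adapted to dishes coated with diluted serum, were kept in the same medium, which the labels name PXGL in the title and PXGLY as the condition, and stood on Geltrex, a commercial basement membrane extract. No allele or transgene was named for either group, and Shef6 is a single line. The libraries of Ex2 carry the tag d4 in their library names, while their titles and time point labels give day 0, and they were taken as naive. Libraries of Ex1 naive cells on serum coating (2) and of cells after 4 days in N2B27 from both experiments (2 and 2) are set beside them where a reference is needed. N2B27 is a defined basal medium without the inhibitors of PXGL, in which naive cells leave the naive state.

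Naive pluripotent cells correspond to the epiblast of the embryo before implantation, and in culture they are held in that state by inhibitors of MEK, tankyrase and protein kinase C together with the cytokine LIF. They depend on general pluripotency factors such as OCT4 (encoded by POU5F1), NANOG and SOX2, and are told apart from primed cells, which resemble the epiblast after implantation, by factors such as KLF17, TFCP2L1 and DPPA5. Naive cultures are known for low DNA methylation and for the use of both mitochondrial respiration and glycolysis. Levels between separate cultures can be compared gene by gene, with the libraries of one experiment sharing whatever else differed from the other experiment, so that the culture, the day of collection and the handling of the libraries cannot be told apart here.

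QuantSeq libraries, which read RNA from the poly(A) end, gave the values. They were deposited as raw counts per gene and are given here as CPM, the usual scaling to library size, after correction for composition. The naive Geltrex libraries held 4529909 and 5577221 counts in Ex1 and 3038046 and 3642536 in Ex2, with 22775 and 23688 genes detected in Ex1 and 21018 and 21759 in Ex2, so Ex2 was the shallower experiment. A gene at 3 counts lay between 0.539 and 1.02 CPM, depending on the library, and lower values are not told from 0. Mitochondrially encoded RNA took between 2.21% and 2.69% of counts with no order between the experiments, and ribosomal protein RNA 10.5% and 10.5% in Ex1 against 12.3% and 12.2% in Ex2. Each library had its own replicate as its nearest among all 38 (Pearson's r across genes 0.985 in Ex1 and 0.978 in Ex2), and the r between libraries of different experiments lay between 0.963 and 0.969, where genes are not independent replicates. The replicates differed by more than counting noise (chi-square per degree of freedom 2.65 and 2.61) and were counted as separate libraries. They are parallel libraries of one experiment, so the p-values below measure the spread between libraries and not between repeated experiments.

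Both groups carried the markers of the naive state, and those of hypoblast and fibroblasts were close to the floor. The 21 naive markers summed to 3522 and 3476 CPM in Ex1 and to 3479 and 3428 CPM in Ex2, while N2B27 day 4 libraries held between 2141 and 2263 CPM. Without ALPG, which rose, the other 20 summed to 3226 and 3218 CPM in Ex1, 2835 and 2773 CPM in Ex2 and between 2065 and 2179 CPM at day 4. SPIC, a transcription factor gene of naive cells, was at 55.2 and 49.8 CPM in Ex1 and 31.3 and 25.6 CPM in Ex2. After 4 days in N2B27 it was at no more than 0.691 CPM, so that in this gene the Ex2 libraries stood with naive cells. This does not tell what the d4 in their names stands for. The names give PXGLY beside it, and whether these cells had spent 4 days in that medium was not tested. CD24, a surface antigen of primed cells, was at 129 and 109 CPM in Ex1 and 53.4 and 62.9 CPM in Ex2, against 771 and 781 CPM at N2B27 day 4 in Ex1. The 7 hypoblast and endoderm markers summed to between 1.02 and 1.79 CPM and the 10 fibroblast and feeder markers to between 2.34 and 5.10 CPM in the 4 libraries, with FAP and GATA4 at 0 in all 4 and SOX17, GATA6 and THY1 at 0 in at least 2. The 11 trophectoderm markers summed to 10.3 and 10.6 CPM in Ex1 and 7.83 and 7.17 CPM in Ex2, the 6 amnion markers to 22.4 and 24.3 CPM and to 15.3 and 15.7 CPM, and the 7 germ layer markers to 22.4 and 22.8 CPM and to 4.08 and 6.89 CPM. In Ex1 the germ layer sum was nearly all MIXL1, which is described below.

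The comparison asks how far apart the naive libraries of both experiments were in this line. Of 16674 genes tested, 778 were called, which is 4.67%, with 388 higher (2.33%) and 390 lower (2.34%) in Ex2. A call needed a Benjamini-Hochberg adjusted p under 0.05 in edgeR's quasi-likelihood test and a log2 fold change above 1 in size, that is, a change of more than 2-fold. At any size, 2535 genes had an adjusted p under 0.05, 1225 of them higher (7.35%) and 1310 lower (7.86%), and counts of list members below are to be read beside these shares. For 8498 genes (50.97%) the 95% interval of the difference lay within a 2-fold change in either direction. For the others the interval reached past it or could not be determined. Only 9 of the 778 called genes passed the filter on low counts through these 4 libraries alone, 6 of them higher and 3 lower. The count depended on single libraries: it was 455 without Ex1 replicate 2 and 474 without Ex2 replicate 1, against 680 without Ex1 replicate 1 and 659 without Ex2 replicate 2. Among called genes, Ex2 replicate 1 lay farther from the Ex1 mean than Ex2 replicate 2 in 463 genes and nearer in 298 (on log2 of CPM plus 1).

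**Figure D1:**
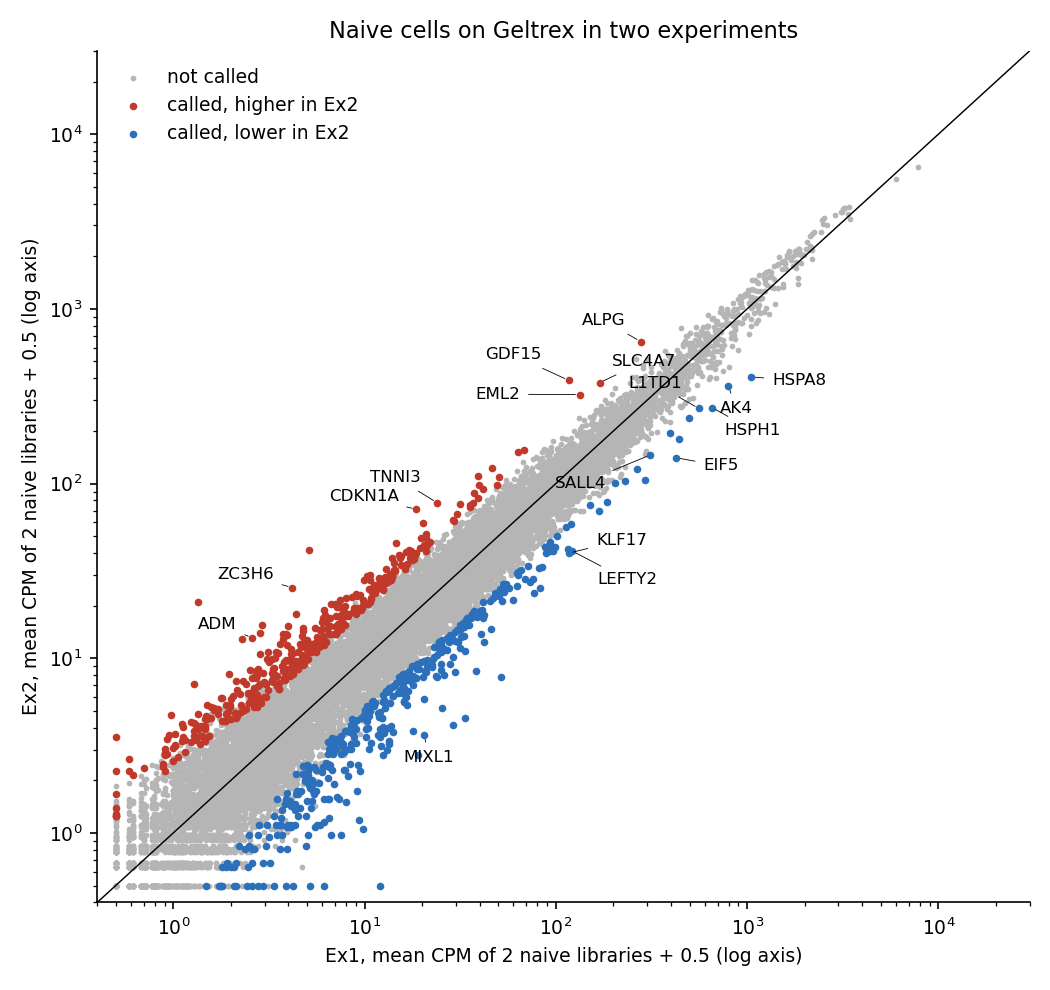
Mean CPM plus 0.5 of each tested gene in the 2 naive Geltrex libraries of Ex1 (x axis) and of Ex2 (y axis), both on log axes, with called genes in red (388 higher in Ex2) and blue (390 lower) and equality as the black line. No gene with a higher mean in Ex1 than HSPA8 was called.

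General pluripotency factors were lower in Ex2 or did not pass the test, and none was higher by the test. Of 7 such genes, 5 had an adjusted p under 0.05 and all 5 fell, with a median log2 fold change of -0.61 over the 7 beside 0 over all genes tested. SALL4, a zinc finger factor of the pluripotency network, was at 337 and 286 CPM in Ex1 and 138 and 153 CPM in Ex2. Both Ex2 libraries lay far below either Ex1 library, and SALL4 was the 1 member past a 2-fold change (log2 fold change -1.10 ± 0.12 SE, adjusted p = 2.4e-07). TDGF1, the coreceptor of NODAL, was at 178 and 178 CPM in Ex1 and 108 and 97.0 CPM in Ex2 (log2 fold change -0.80 ± 0.14 SE, adjusted p = 1.2e-04). SOX2 was at 273 and 257 CPM in Ex1 and 182 and 165 CPM in Ex2 (log2 fold change -0.61 ± 0.12 SE, adjusted p = 5.1e-04). NANOG was at 1101 and 1125 CPM in Ex1 and 774 and 878 CPM in Ex2 (log2 fold change -0.43 ± 0.11 SE, adjusted p = 0.0050). PRDM14, a repressor that guards pluripotency, stood near its threshold (log2 fold change -0.65, adjusted p = 0.043). The groups did not overlap in SALL4, TDGF1, SOX2, NANOG or PRDM14, nor in 57.4% of all genes tested. POU5F1, in contrast, was at 362 and 364 CPM in Ex1 and 411 and 335 CPM in Ex2, the libraries of Ex2 lay on both sides of those of Ex1, and it did not pass the test (log2 fold change 0.04 ± 0.29 SE, adjusted p = 0.96). Without Ex1 replicate 2, 3 of the 7 fell by the test, and without Ex1 replicate 1 the change of SALL4 was -0.99. DPPA4, a chromatin factor, was at 464 and 434 CPM in Ex1 and 420.2 and 412 CPM in Ex2 (log2 fold change -0.11 ± 0.08 SE, adjusted p = 0.42).

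The 21 naive markers split. At an adjusted p under 0.05, 9 fell and 2 rose, with a median of -0.28, or -0.30 when HKDC1, at the floor in both groups, was left out. KLF17, a zinc finger factor used to define human naive cells (chromosome 1, bases 44118821 to 44135140 in GENCODE release 44 on GRCh38), was at 107 and 125 CPM in Ex1 and 36.7 and 42.2 CPM in Ex2. The groups were far apart (log2 fold change -1.56 ± 0.26 SE, adjusted p = 9.2e-05). KLF4, a factor of the same family, fell less, from 108 and 110.0 CPM to 59.2 and 65.1 CPM (log2 fold change -0.81 ± 0.16 SE, adjusted p = 6.1e-04), and KLF5 less again (log2 fold change -0.39, adjusted p = 0.0091). SPIC (-0.89, adjusted p = 0.0089), DPPA2 (-0.71, adjusted p = 0.035), TRIM60 (-0.65, adjusted p = 0.0020), DPPA3 (-0.49, adjusted p = 0.0042), DNMT3L (-0.42, adjusted p = 0.025) and ZFP42 (-0.32, adjusted p = 0.029) also fell, all by less than 2-fold. The count of 9 was 5 without Ex1 replicate 2, 5 without Ex2 replicate 1 and 4 without Ex2 replicate 2.

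ALPG went the other way. It encodes the germ cell alkaline phosphatase, was at 295 and 258 CPM in Ex1 and 643 and 655 CPM in Ex2 and had the largest rise in CPM of any called gene (chromosome 2, bases 232406844 to 232410714; log2 fold change 1.23 ± 0.14 SE, adjusted p = 3.4e-07). Reads of ALPG can be hard to assign, since the alkaline phosphatase genes next to it are near copies. CPT1A, which carries fatty acids into mitochondria, rose from 129 and 109 CPM to 185 and 176 CPM (log2 fold change 0.60 ± 0.13 SE, adjusted p = 0.0023). For TFCP2L1, TFAP2C, DPPA5, SUSD2, FGF4, ZNF729, OLAH, HORMAD1 and ARGFX no difference passed the test. TFCP2L1, a naive transcription factor, was at 246 and 229 CPM in Ex1 and 232 and 250.1 CPM in Ex2 (log2 fold change 0.02, adjusted p = 0.93). TFAP2C, a factor of the same network, was at 462 and 463 CPM in Ex1 and 425 and 471 CPM in Ex2. SUSD2, the surface marker used to sort naive cells, was at 81.9 and 82.2 CPM in Ex1 and 99.4 and 85.7 CPM in Ex2. The groups overlapped in TFCP2L1 and TFAP2C, while in SUSD2 both Ex2 libraries lay slightly above those of Ex1 (adjusted p = 0.53).

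Genes of the Activin/Nodal pathway were mostly lower in Ex2. Nodal is a secreted ligand that signals through SMAD2 and SMAD3, and its targets include its own inhibitors LEFTY1 and LEFTY2. Of 9 members tested, 6 fell and 1 rose at an adjusted p under 0.05, and 4 of the falls were called, with a median of -0.98, or -1.07 without CER1, which was at 0 in these libraries. TDGF1, counted above with the general pluripotency factors, was among the 6. The ligand NODAL was at 217 and 214 CPM in Ex1 and 92.2 and 126 CPM in Ex2 (log2 fold change -0.98 ± 0.17 SE, adjusted p = 1.1e-04). LEFTY1 was at 86.3 and 76.9 CPM in Ex1 and 18.0 and 31.2 CPM in Ex2 (log2 fold change -1.70 ± 0.21 SE, adjusted p = 1.1e-06). LEFTY2 was at 121 and 120.4 CPM in Ex1 and 26.2 and 55.1 CPM in Ex2 (log2 fold change -1.55 ± 0.23 SE, adjusted p = 2.6e-05). In all 3 the groups were apart and Ex2 replicate 1 was the lower of the Ex2 libraries. LEFTY1 and LEFTY2 are near copies of each other, so the split of reads between them is uncertain. SMAD7, an inhibitory SMAD, fell as well (-1.16, adjusted p = 7.2e-05). FOXH1, the DNA-binding partner of the SMADs, rose (0.53, adjusted p = 0.0020), and GDF3, a related ligand, did not pass the test (409 and 365 CPM in Ex1 and 384 and 374 CPM in Ex2, adjusted p = 0.91). With the offsets for GC content and length described below, 6 of the 9 members fell and none rose, so that the rise of FOXH1 did not pass there.

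In the BMP and WNT lists some genes were lower too. Of 10 BMP pathway members, 3 passed the test and all 3 were called as falls (SMAD7, above, among them), beside 2.34% of all genes called lower, with a median of -0.51. ID1, an inhibitor of differentiation factors and a direct BMP target, was at 60.4 and 58.2 CPM in Ex1 and 17.0 and 24.8 CPM in Ex2 (log2 fold change -1.48 ± 0.17 SE, adjusted p = 2.3e-07). The ligand BMP2 was at 42.9 and 39.4 CPM in Ex1 and 12.2 and 22.3 CPM in Ex2 (log2 fold change -1.23 ± 0.22 SE, adjusted p = 2.5e-04), and without Ex2 replicate 1 it changed by -0.88. BMP4 did not pass the test at 13.2 and 12.4 CPM in Ex1 and 11.6 and 13.2 CPM in Ex2 (adjusted p = 0.95). Of 10 WNT targets tested, 4 fell and none rose, beside 7.86% of all genes that fell, and 3 were at 3 counts or fewer in both groups. The ubiquitin ligase ZNRF3 went from 30.6 and 33.4 CPM to 19.1 and 11.9 CPM (log2 fold change -1.08 ± 0.30 SE, adjusted p = 0.013), and did not pass the test without Ex1 replicate 2 (adjusted p = 0.0998) or without Ex2 replicate 2 (adjusted p = 0.23). The feedback inhibitor AXIN2 fell by less than 2-fold (-0.82, adjusted p = 0.011), and TCF7 and the weakly expressed APCDD1 fell as well, though APCDD1 had an adjusted p of 0.11, 0.12 and 0.080 without Ex1 replicate 1, Ex2 replicate 1 and Ex2 replicate 2. Over ERK feedback genes there was no common direction, with 3 of 13 higher, 2 lower and 4 at 3 counts or fewer in both groups. SPRY1, at under 1 CPM in Ex1, was at 4.76 and 2.76 CPM in Ex2 (adjusted p = 0.0021). ETV5 went from 1.34 and 1.80 CPM to 0 and 0.276 CPM (adjusted p = 0.014). Neither passed the test without Ex2 replicate 1 (adjusted p = 0.092 and 0.16), nor ETV5 without Ex1 replicate 2 (adjusted p = 0.12). MIXL1, a homeobox gene of mesendoderm, was at 19.9 and 20.1 CPM in Ex1 and 2.38 and 3.86 CPM in Ex2 and fell the most among genes of the lists with at least 20 CPM (log2 fold change -2.64 ± 0.33 SE, adjusted p = 1.4e-06).

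Genes of DNA methylation were all on the lower side in Ex2. Of 8 members, 6 fell at an adjusted p under 0.05 and none rose, with a median of -0.39. DNMT3L, counted above with the naive markers, was among the 6. The count of 6 was 3 without Ex1 replicate 1 and 3 without Ex2 replicate 2. The maintenance methyltransferase DNMT1 was at 165 and 174 CPM in Ex1 and 94.9 and 94.3 CPM in Ex2 (log2 fold change -0.84 ± 0.11 SE, adjusted p = 3.1e-06). Its partner UHRF1 was at 99.3 and 92.6 CPM in Ex1 and 55.1 and 54.0 CPM in Ex2 (log2 fold change -0.81 ± 0.13 SE, adjusted p = 8.6e-05). TET2, which oxidises methylcytosine, was the 1 member past a 2-fold change, at 31.1 and 34.7 CPM in Ex1 and 12.6 and 8.55 CPM in Ex2 (log2 fold change -1.65 ± 0.24 SE, adjusted p = 1.7e-05). DNMT3A, a de novo methyltransferase, did not pass the test (151 and 152 CPM in Ex1 and 148 and 139.8 CPM in Ex2, adjusted p = 0.69). Among 14 primed or formative markers tested, 6 were at 3 counts or fewer in both groups. Of the 14, 4 fell and none rose. They were CD24, given above (log2 fold change -1.03 ± 0.12 SE, adjusted p = 5.6e-07), DNMT3B (-0.36, adjusted p = 0.020), the neuroligin NLGN4X (-1.02, adjusted p = 0.0019) and OTX2, a homeobox factor of the formative state that was low in both groups at 5.81 and 6.11 CPM in Ex1 and 2.04 and 1.10 CPM in Ex2. Both CD24 and NLGN4X changed by less than 2-fold without Ex2 replicate 1 (-0.92 and -0.95), CD24 also without Ex1 replicate 1 (-0.92) and NLGN4X without Ex1 replicate 2 (-0.92). The offsets for GC content and length described below gave -0.93 for CD24 and -0.90 for NLGN4X. CD24 also lost its call with both coatings of Ex1 pooled. General, naive and primed markers all included genes that were lower in Ex2.

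Many targets of p53, the transcription factor activated by DNA damage and other stress, rose in Ex2. Of 23 tested, 15 had an adjusted p under 0.05 and all 15 rose, beside the 7.35% of all genes that rose, 4 were called, and the median was 0.54. CDKN1A, which encodes the cell cycle inhibitor p21 (chromosome 6, bases 36676460 to 36687337), was at 18.6 and 17.6 CPM in Ex1 and 82.7 and 58.7 CPM in Ex2. GDF15, a secreted stress cytokine (chromosome 19, bases 18374731 to 18389176), was at 120.3 and 111 CPM in Ex1 and 454 and 325 CPM in Ex2. In both genes the groups were far apart and Ex2 replicate 1 was the higher of its pair. The differences were 3.89-fold (log2 fold change 1.96 ± 0.20 SE, adjusted p = 4.7e-08) and 3.36-fold (log2 fold change 1.75 ± 0.14 SE, adjusted p = 2.7e-10). FDXR, a mitochondrial reductase, rose from 41.2 and 37.6 CPM to 109.6 and 84.9 CPM (log2 fold change 1.30 ± 0.18 SE, adjusted p = 6.3e-06). BTG2, an antiproliferative gene, rose from 10.5 and 8.45 CPM to 31.3 and 23.4 CPM (log2 fold change 1.53 ± 0.24 SE, adjusted p = 4.7e-05). MDM2, the ubiquitin ligase of p53, was at 483 and 439 CPM in Ex1 and 645 and 586 CPM in Ex2 (log2 fold change 0.42 ± 0.10 SE, adjusted p = 0.0032). BBC3, which encodes the cell death protein PUMA, was at 306 and 295 CPM in Ex1 and 538 and 496 CPM in Ex2 (log2 fold change 0.78 ± 0.18 SE, adjusted p = 0.0029). GADD45A, a DNA damage gene outside the list, rose from 17.4 and 22.1 CPM to 71.5 and 45.8 CPM (log2 fold change 1.54 ± 0.19 SE, adjusted p = 6.8e-07). Without Ex1 replicate 2 the number of p53 targets that rose was 7, and without Ex2 replicate 1 it was 8.

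Some genes of the ATF4 amino acid response also rose in Ex2. ATF4 is the transcription factor made when translation is slowed by amino acid or other stress. Of 25 members, 9 rose and none fell at an adjusted p under 0.05, and the median was 0.41. NUPR1, a stress coregulator, was the called member, at 20.8 and 20.1 CPM in Ex1 and 58.2 and 43.3 CPM in Ex2 (log2 fold change 1.30 ± 0.26 SE, adjusted p = 7.4e-04). DDIT3, which encodes CHOP, was at 52.3 and 51.4 CPM in Ex1 and 93.9 and 96.5 CPM in Ex2 (log2 fold change 0.88 ± 0.16 SE, adjusted p = 2.4e-04). ATF4 itself was at 668 and 661 CPM in Ex1 and 895 and 865 CPM in Ex2 (log2 fold change 0.40 ± 0.12 SE, adjusted p = 0.022). The number of members that rose was 5 without Ex1 replicate 1, 3 without Ex1 replicate 2, 5 without Ex2 replicate 1 and 4 without Ex2 replicate 2, and it was 14 in a fit to the 4 libraries alone.

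**Figure D2:**
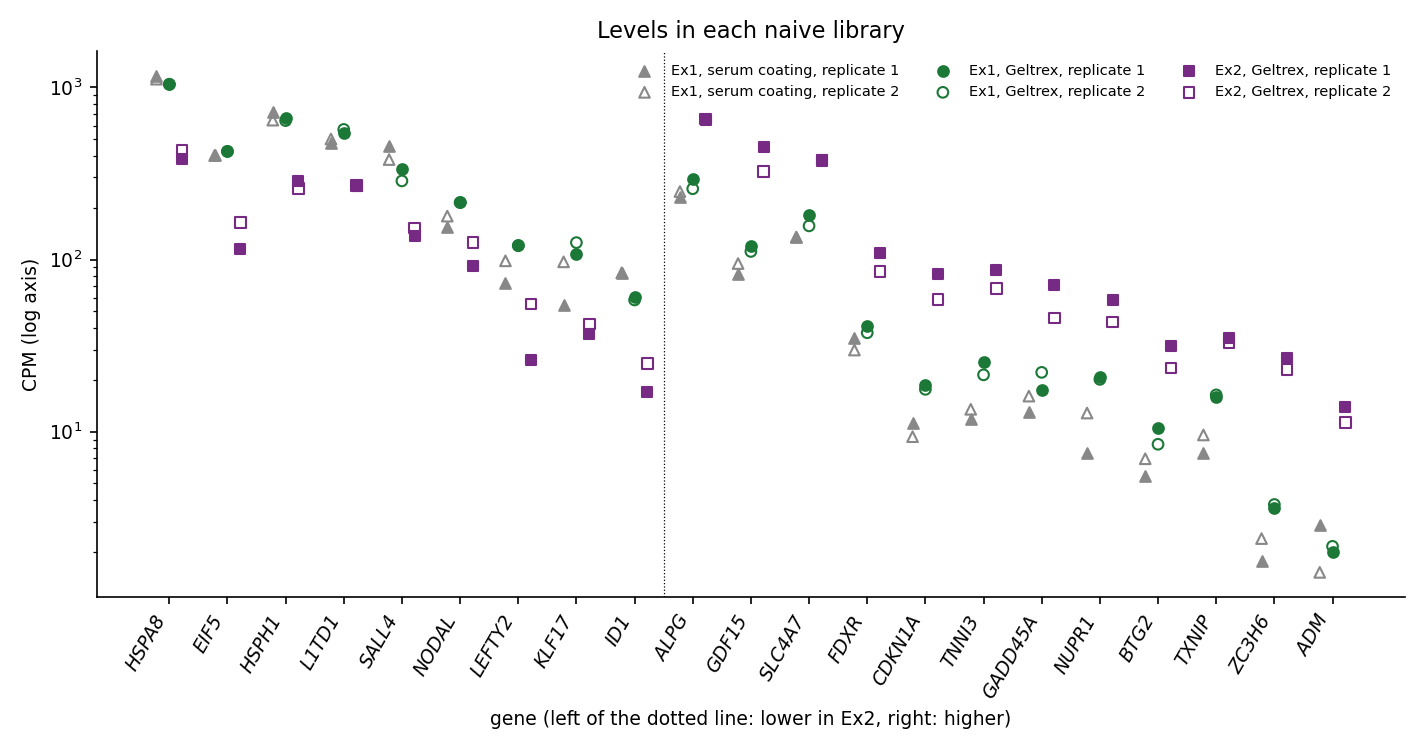
CPM on a log axis of 21 genes in each naive library, with grey triangles for Ex1 on serum coating, green circles for Ex1 on Geltrex and purple squares for Ex2 on Geltrex (filled, replicate 1; open, replicate 2). The Ex2 squares lie below all Ex1 symbols in the 9 genes on the left and above them in the 12 on the right.

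A few heat shock genes fell in Ex2, led by 2 chaperones. HSPA8, the constitutive Hsp70 that folds nascent proteins, lost the most CPM of any called gene. Its promoter is shown because it was the 1 heat shock gene of the list whose window held the heat shock element at more than 1 place. In it the capitals mark the heat shock element, written here as the units GAA, TTC and GAA parted by any 2 bases each and searched on both strands, in the 300 bases around the annotated start (RefSeq, GRCh38.p14, chr11:123062087-123062386, minus strand):
HSPA8: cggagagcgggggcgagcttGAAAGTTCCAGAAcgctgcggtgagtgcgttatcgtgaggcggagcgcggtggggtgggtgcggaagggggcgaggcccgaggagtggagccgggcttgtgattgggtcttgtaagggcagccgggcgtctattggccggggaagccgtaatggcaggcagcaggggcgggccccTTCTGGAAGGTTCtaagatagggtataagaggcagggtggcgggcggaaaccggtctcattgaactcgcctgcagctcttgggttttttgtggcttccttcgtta
The element stood 2 times in this window, without overlap, and was present in 172 of 35116 RefSeq promoters of that length (0.490%). Among the 16 genes of the list, all with a promoter in that table, HSPA8, HSP90AA1 and HSPD1 held it and the other 13 did not in these windows.

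HSPA8 was at 1054 and 1044 CPM in Ex1 and 383 and 431 CPM in Ex2. Replicates were close within each group and the groups were far apart (log2 fold change -1.37 ± 0.10 SE, adjusted p = 8.9e-11). HSPH1, the Hsp110 exchange factor of Hsp70 (chromosome 13, bases 31134973 to 31162388), was at 664 and 642 CPM in Ex1 and 286 and 258 CPM in Ex2 (log2 fold change -1.27 ± 0.13 SE, adjusted p = 1.2e-07). The mitochondrial chaperonin gene HSPD1 fell (-0.48, adjusted p = 0.0054), as did XBP1, a factor of the unfolded protein response (-0.43, adjusted p = 0.0044). These were the 4 of 16 members with an adjusted p under 0.05, none rose, and 2 were called. HSP90AA1 was at 5914 and 6055 CPM in Ex1 and 5723 and 5386 CPM in Ex2 and did not pass the test (adjusted p = 0.56). Neither did HSPA1A at 82.3 and 103 CPM in Ex1 and 64.0 and 99.0 CPM in Ex2 (adjusted p = 0.57), nor HSPA5, the chaperone of the endoplasmic reticulum, at 1059.9 and 1037 CPM in Ex1 and 1113 and 973 CPM in Ex2 (adjusted p = 0.98). The heat-inducible HSPA1A and HSPA1B are near copies, and reads of HSPA8 can also fall on its processed copies, so these levels carry that uncertainty.

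Metallothioneins, small proteins that bind zinc and copper, fell together. All 8 metallothionein genes and the zinc exporter gene SLC30A1 had lower means in Ex2, and 8 of these 9 had an adjusted p under 0.05 (beside 7.86% of all genes that fell), with a median of -0.65 and none past a 2-fold change. Promoters of 2 members are shown because the list moved as one and both carry the core of the metal response element several times. Capitals mark that core, TGCACNC or TGCGCNC, on either strand (RefSeq, GRCh38.p14; MT1X at chr16:56682220-56682519 and MT2A at chr16:56608334-56608633, both plus strand):
MT1X: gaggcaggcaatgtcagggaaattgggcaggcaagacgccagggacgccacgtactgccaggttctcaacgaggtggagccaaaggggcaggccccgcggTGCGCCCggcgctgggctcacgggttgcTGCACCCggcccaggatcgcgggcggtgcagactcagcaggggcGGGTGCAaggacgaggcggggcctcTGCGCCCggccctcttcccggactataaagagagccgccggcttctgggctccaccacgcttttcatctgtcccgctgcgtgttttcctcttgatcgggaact
MT2A: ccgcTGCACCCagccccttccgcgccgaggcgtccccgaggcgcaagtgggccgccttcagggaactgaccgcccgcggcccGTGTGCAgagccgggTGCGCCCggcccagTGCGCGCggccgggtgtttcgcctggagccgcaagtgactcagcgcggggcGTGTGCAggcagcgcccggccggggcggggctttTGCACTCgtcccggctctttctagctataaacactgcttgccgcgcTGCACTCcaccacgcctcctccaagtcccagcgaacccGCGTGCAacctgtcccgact
The core stood 4 times in the first and 8 times in the second, without overlap. It is a short motif, found at least once in 29.6% of the 35116 promoters and at 2 or more places in 7.51%. All 4 list members with a promoter in the table (MT1H, MT1X, MT2A and SLC30A1) held it at 2 or more places.

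MT1X was at 176 and 174 CPM in Ex1 and 92.2 and 86.6 CPM in Ex2 (log2 fold change -0.97 ± 0.13 SE, adjusted p = 6.3e-06). MT2A was at 465 and 458 CPM in Ex1 and 317 and 333 CPM in Ex2 (log2 fold change -0.50 ± 0.10 SE, adjusted p = 7.7e-04). MT1G, the most abundant, was at 1180.4 and 1101 CPM in Ex1 and 840.5 and 883 CPM in Ex2 (log2 fold change -0.40 ± 0.09 SE, adjusted p = 0.0030). In each of these the groups were apart, with close replicates. SLC30A1 went from a mean of 45.5 ± 2.07 CPM (SD, n = 2) to 24.8 ± 2.35 CPM (SD, n = 2; log2 fold change -0.87 ± 0.16 SE, adjusted p = 2.7e-04), and MT1A alone did not pass the test (-0.42, adjusted p = 0.21). The 9 genes summed to 3209 and 3114 CPM in Ex1 and to 2054 and 2198 CPM in Ex2. Members of this family are near copies, so single members are less certain than the sum. SRXN1, an antioxidant enzyme gene, was at 48.5 and 55.0 CPM in Ex1 and 16.3 and 25.1 CPM in Ex2 (log2 fold change -1.30 ± 0.22 SE, adjusted p = 9.2e-05).

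Metabolic genes rose in part. Of 19 glycolytic genes, 7 rose and 1 fell at an adjusted p under 0.05, with a median of 0.36, and the 7 were 3 without Ex1 replicate 2 and 4 without Ex2 replicate 2. LDHA, lactate dehydrogenase A, was at 467 and 433 CPM in Ex1 and 764 and 794 CPM in Ex2 (log2 fold change 0.79 ± 0.17 SE, adjusted p = 0.0016). GAPDH stood at 673 and 567 CPM in Ex1 and 902 and 937 CPM in Ex2 (log2 fold change 0.57 ± 0.12 SE, adjusted p = 0.0014). ALDOC, an aldolase and the called member, stood at 14.8 and 14.6 CPM in Ex1 and 35.0 and 41.6 CPM in Ex2 (log2 fold change 1.39 ± 0.20 SE, adjusted p = 1.6e-05). Of 21 hypoxia genes, 8 rose and 4 fell, and the 8 were 4 without Ex1 replicate 2 and 5 without Ex2 replicate 2. ADM, the peptide adrenomedullin, was at 2.01 and 2.16 CPM in Ex1 and 14.0 and 11.3 CPM in Ex2 (log2 fold change 2.57 ± 0.35 SE, adjusted p = 5.2e-06). BNIP3, a mitophagy receptor, was at 195 and 195 CPM in Ex1 and 330.1 and 317 CPM in Ex2 (log2 fold change 0.73 ± 0.13 SE, adjusted p = 1.9e-04). EGLN3, an oxygen-sensing hydroxylase, and the glucose transporter SLC2A1 fell (-0.79, adjusted p = 0.0012; -0.51, adjusted p = 0.014). The list therefore did not move one way. TXNIP, an arrestin whose RNA follows glucose, was at 15.9 and 16.4 CPM in Ex1 and 35.0 and 32.8 CPM in Ex2 (log2 fold change 1.07 ± 0.19 SE, adjusted p = 1.6e-04).

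Some cytosolic ribosomal protein genes rose by small amounts. Of 81, 27 rose and none fell at an adjusted p under 0.05, none passed 2-fold, and the median was 0.25. Their sum was 106720 and 105290 CPM in Ex1 and 127370 and 122670 CPM in Ex2. The count of 27 was 13 without Ex1 replicate 1, 3 without Ex1 replicate 2, 4 without Ex2 replicate 1 and 11 without Ex2 replicate 2. The sums were 88329 and 95669 CPM on serum coating in Ex1, and the median over the 81 was 0.22 for Ex1 Geltrex against serum coating (68 positive) and 0.20 for Ex2 against Ex1 at N2B27 day 4 (79 positive), beside the 0.25 above. The count of 27 was 46 in a fit to the 4 libraries alone, so the number of single genes depended on the fit, while the sums of the 2 groups did not overlap. Of 76 nuclear genes of the respiratory chain, 10 rose and 1 fell with a median of 0.17, beside 7.35% and 7.86% of all genes. With the offsets for GC content and length described below, 6 of the 76 rose and none fell. For Ex1 Geltrex against serum coating the median over these 76 nuclear genes was 0.22 (65 positive). Of 13 mitochondrial ones only MT-ND6 passed the test, from 73.1 and 113 CPM to 50.4 and 31.2 CPM (log2 fold change -1.21 ± 0.25 SE, adjusted p = 9.5e-04), and it did not pass without Ex1 replicate 2 (adjusted p = 0.075) or Ex2 replicate 2 (adjusted p = 0.065). MT-ND6 is encoded on the strand opposite to most mitochondrial genes, and whether the counting used strand is not given in the sources used here. Sterol genes moved both ways, with 4 higher and 3 lower of 23.

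**Figure D3:**
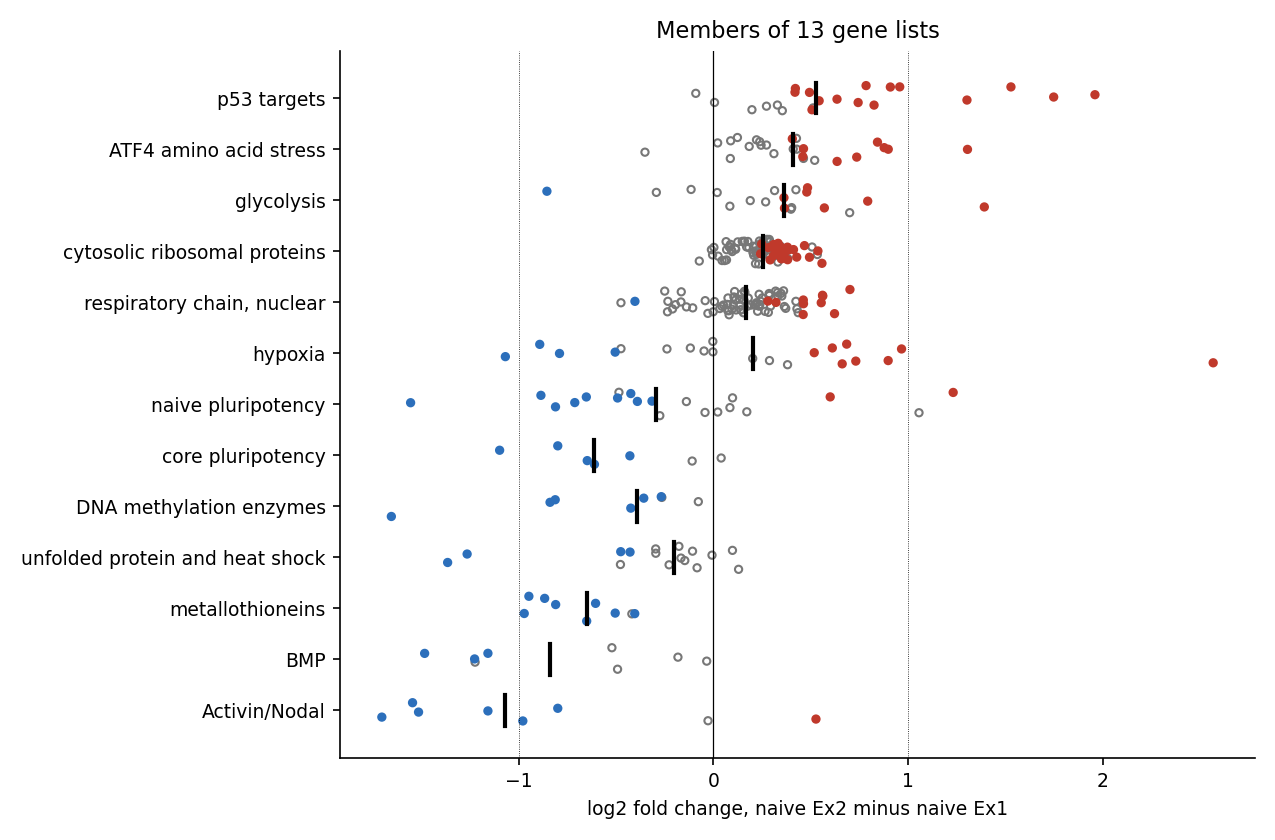
Log2 fold change (naive Ex2 minus naive Ex1) of the members of 13 gene lists with at least 2 CPM in one of the 4 libraries, filled where the adjusted p was under 0.05 (red higher, blue lower), with the median of the drawn members as a black bar. Most p53 and ATF4 members lie to the right of 0, metallothioneins and most Activin/Nodal members to the left, and hypoxia genes on both sides.

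Single proliferation genes fell. Of 19 G1/S and replication genes, 5 fell and 1 rose at an adjusted p under 0.05, beside 7.86% of all genes that fell and 7.35% that rose, and the median was -0.08. Cyclin D1 (CCND1) was low throughout, at 6.04 and 6.47 CPM in Ex1 and 1.36 and 2.21 CPM in Ex2 (adjusted p = 0.0056, and 0.080 without Ex2 replicate 1). RRM2, a subunit of ribonucleotide reductase, was at 202 and 204 CPM in Ex1 and 123 and 132 CPM in Ex2 (log2 fold change -0.67 ± 0.11 SE, adjusted p = 7.2e-05). The licensing factor CDT1 rose from 117 and 76.0 CPM to 173 and 174 CPM (log2 fold change 0.86 ± 0.13 SE, adjusted p = 4.0e-05). Of 15 G2/M genes, 3 fell and none rose, with cyclin B1 (CCNB1) at 279 and 304 CPM in Ex1 and 146 and 150.3 CPM in Ex2 (log2 fold change -0.98 ± 0.15 SE, adjusted p = 3.9e-05). Of 28 replication histone genes tested, 4 fell and none rose, and all 4 were called, beside 2.34% of all genes called lower. HIST2H2BF was at 34.0 and 31.3 CPM in Ex1 and 8.85 and 17.1 CPM in Ex2 (log2 fold change -1.30 ± 0.25 SE, adjusted p = 5.4e-04) and HIST1H1A was at 18.8 and 16.2 CPM in Ex1 and 8.85 and 4.14 CPM in Ex2. HIST2H2BF changed by -0.93 without Ex2 replicate 1, and HIST1H1A did not pass the test without Ex2 replicate 2 (adjusted p = 0.13). Replication histone RNA mostly lacks a poly(A) tail, which this protocol needs, so these levels are a small share of what cells may hold. JUN, an immediate early factor, was at 20.1 and 24.1 CPM in Ex1 and 6.81 and 9.93 CPM in Ex2 (log2 fold change -1.38 ± 0.21 SE, adjusted p = 3.1e-05). In its list of 14 genes tested, 1 rose and 2 fell at an adjusted p under 0.05. CYR61, a YAP target, was at 12.1 and 12.6 CPM in Ex1 and 5.78 and 3.58 CPM in Ex2 (log2 fold change -1.43 ± 0.29 SE, adjusted p = 9.8e-04). The 18 YAP/TEAD targets tested did not go with it, as 3 rose and 1 fell, with a median of 0.22.

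Many of the large changes in abundant genes lay outside the lists. EIF5, which sets off GTP hydrolysis at the start codon during translation, was at 425 and 425 CPM in Ex1 and 115 and 164 CPM in Ex2 (log2 fold change -1.60 ± 0.11 SE, adjusted p = 5.2e-11). AK4, a mitochondrial adenylate kinase, was at 854 and 741 CPM in Ex1 and 346 and 374 CPM in Ex2 (log2 fold change -1.15 ± 0.11 SE, adjusted p = 3.0e-08). L1TD1, an RNA-binding protein of pluripotent cells, was at 545 and 570.4 CPM in Ex1 and 267 and 269.9 CPM in Ex2 (log2 fold change -1.06 ± 0.09 SE, adjusted p = 3.4e-09). With HSPA8 and HSPH1 these lost the most CPM among called genes, and in none of the 5 did the groups overlap. With offsets for GC content and length AK4 and L1TD1 changed by less than 2-fold (-0.97 and -0.90), as did L1TD1 with both coatings of Ex1 pooled (-0.96). The nuclear receptor coactivator NCOA5, the kinase subunit PRKAR2B and the phosphatase SYNJ2 had log2 fold changes of -1.88, -1.71 and -1.70. The pseudogenes FABP5P7, SMG1P1 and SMG1P4 (-2.44, -2.18 and -1.78) were among the 12 largest falls of genes at 20 CPM or more whose groups did not overlap, and can share reads with their parent genes, as MT-TN (-3.01) and MT-TV (1.52), mitochondrial tRNA genes, can share them with their neighbours.

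Among the rises, ZC3H6, a zinc finger gene, went from 3.58 and 3.78 CPM to 26.9 and 22.9 CPM, the largest rise among genes at 20 CPM or more whose groups did not overlap (log2 fold change 2.74 ± 0.34 SE, adjusted p = 1.1e-06). The bicarbonate cotransporter SLC4A7 was at 181 and 157 CPM in Ex1 and 378 and 377 CPM in Ex2 (log2 fold change 1.16 ± 0.11 SE, adjusted p = 1.8e-08). The microtubule protein EML2 was at 135 and 129.6 CPM in Ex1 and 337 and 308 CPM in Ex2 (log2 fold change 1.28 ± 0.17 SE, adjusted p = 5.2e-06). CD70, a ligand of the TNF family, was at 72.2 and 63.5 CPM in Ex1 and 181 and 130.4 CPM in Ex2 (log2 fold change 1.20 ± 0.21 SE, adjusted p = 1.6e-04). Among called genes these 3, with ALPG and GDF15, gained the most CPM, and CD70 changed by 0.94 without Ex2 replicate 1 and by 0.98 with the offsets. TNNI3, cardiac troponin I, went from 25.5 and 21.4 CPM to 86.4 and 67.8 CPM (log2 fold change 1.72 ± 0.21 SE, adjusted p = 7.8e-07). BCAS4 (1.68), POLD1, the catalytic subunit of DNA polymerase delta (1.64), the protocadherin PCDH1 (1.59), the lens crystallin CRYBA4 (1.58) and AMN1 (1.55) were also among the 12 largest log2 rises of genes at 20 CPM or more whose groups did not overlap. With both coatings of Ex1 pooled POLD1 changed by 0.87.

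The coating of Ex1 naive cells gives a scale for these differences within one experiment. Naive cells on Geltrex differed from those on serum coating in 8 genes (0.048%), 4 higher and 4 lower, and none of the 8 was among the genes named here. The count of 8 was 1 without Ex1 replicate 1 and 0 without Ex1 replicate 2 (edgeR, with 1395 genes at an unadjusted p under 0.05; DESeq2 gave 0 with 853), and it was 106 with no filter on low counts. The naive libraries of Ex2 differed from the Ex1 libraries on serum coating in 1510 genes (9.06%), 743 higher and 767 lower. Both of the comparisons with Ex2 use the same Ex2 libraries and are not independent. The median size of the log2 fold change over genes that reached 20 CPM in a naive Geltrex group was 0.161 for the coating, 0.259 for Ex2 against Ex1 on Geltrex and 0.329 for Ex2 against Ex1 on serum coating. In the 21 genes of the plot of levels by library, the serum-coated libraries all stood on the same side of Ex2 as those on Geltrex. HSPA8 was at 1172 and 1117 CPM on serum coating, EIF5 at 408 and 402 CPM, GDF15 at 82.3 and 94.8 CPM and ALPG at 232 and 248 CPM. In some genes the Geltrex libraries of Ex1 lay between serum coating and Ex2. CDKN1A was at 11.2 and 9.35 CPM on serum coating, NUPR1 at 7.50 and 12.8 CPM and TXNIP at 7.50 and 9.57 CPM. KLF17 was at 54.7 and 97.0 CPM on serum coating, so that its 2 libraries there were themselves far apart and lay between those of the Geltrex groups.

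Cells that had spent 4 days in N2B27 were also sequenced in both experiments, and there the experiments were closer. Ex2 differed from Ex1 in 168 genes (1.01%), 65 higher and 103 lower. With DESeq2 the 168 were 98. This comparison shares no library with the naive one. The naive list and the N2B27 list had 17 genes in common, 2.19% of the naive list and 10.1% of the N2B27 list, 6 with the same and 11 with the opposite direction. Of the 778 genes called in naive cells, 305 had the same sign at N2B27 day 4, and for 465 (59.8%) the difference between both comparisons was itself called, in a test in which 1081 genes (6.48%) were called in all. The naive difference is one side of that test, so the selection of the 778 largely fixes this share. That total was 713 without Ex1 replicate 2 and 695 without Ex2 replicate 1. Across all 16674 genes the 2 sets of log2 fold changes had a Pearson's r of -0.031 and a Spearman's rho of -0.084, as a description over genes that are not independent.

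Of the named genes, 52 had a called difference between both comparisons, 50 of them called in naive cells, and 4 of the 52 were also called at N2B27 day 4. Most named genes were chosen because they were called in naive cells, so that these counts are a description that the choice largely fixes. HSPA8 was at 1260.3 and 1205 CPM in Ex1 and 1386 and 1454 CPM in Ex2 after 4 days, and the difference between the comparisons was -1.57 ± 0.14 SE in log2 (adjusted p = 7.3e-09). EIF5 was at 408 and 377 CPM and 422 and 428 CPM, and L1TD1 at 1479 and 1341 CPM and 1464 and 1439 CPM, and neither passed the test there. CDKN1A and GDF15 were higher in Ex2 by the test at both times, with a log2 fold change at day 4 of 0.95 (adjusted p = 0.0028) and 0.56 (adjusted p = 0.017). LEFTY1 was lower at both times (-0.60 at day 4, adjusted p = 0.044), as was CCND1 (-0.71, adjusted p = 0.0078), and MIXL1 was called at both times as a fall (-1.06 at day 4, adjusted p = 0.0053). KLF4, which was lower in naive Ex2 cells, was called higher in Ex2 at day 4 (1.10, adjusted p = 2.1e-04).

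The metallothioneins turned round between the naive state and day 4. All 9 members of the metallothionein list were lower in naive Ex2 cells, and 7 of the 9 rose in Ex2 at N2B27 day 4 at an adjusted p under 0.05 (beside 1.78% of all genes), with a median of 0.51 against -0.65. Several hypoxia genes that rose in naive Ex2 cells fell there at day 4, though not VEGFA or ADM: P4HA1, a collagen hydroxylase, had a log2 fold change of 0.61 in naive cells and -1.36 at day 4 (adjusted p = 7.6e-11), and PDK1 of 0.68 and -1.45 (adjusted p = 4.8e-05). In that list 9 of 21 genes fell and none rose at day 4, beside 2.1% of all genes that fell. TXNIP was at a mean of 75.4 ± 4.25 CPM (SD, n = 2) in Ex1 and 20.1 ± 0.106 CPM (SD, n = 2) in Ex2 after 4 days, the opposite order from naive cells, and the difference between the comparisons was 2.98 ± 0.25 SE (adjusted p = 1.8e-09). Sterol genes, which had moved both ways in naive cells, rose in Ex2 at day 4 in 16 of 23 members. The p53 targets rose in 3 and fell in 1 of 23 at day 4.

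**Figure D4:**
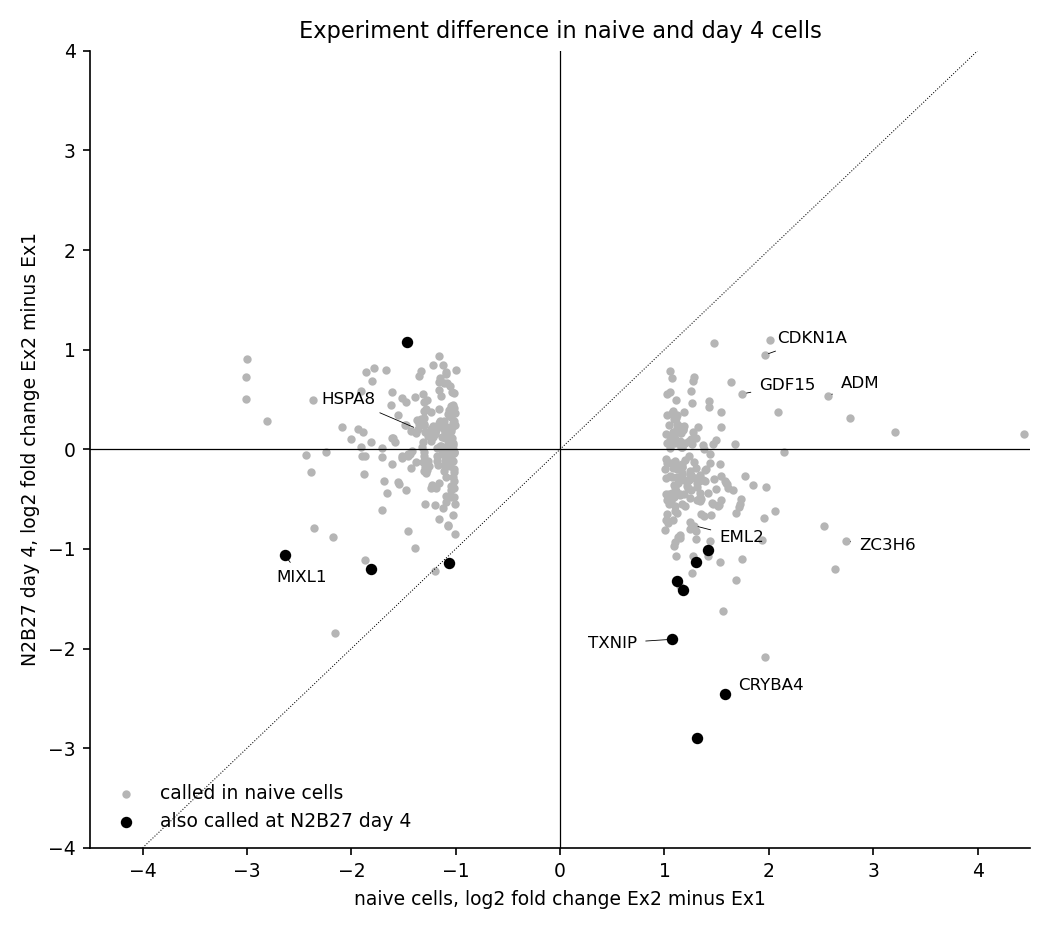
Log2 fold change Ex2 minus Ex1 in naive cells (x axis) and at N2B27 day 4 (y axis) for 413 genes called in naive cells that reached 10 CPM in a naive Geltrex group, with the 11 of them also called at day 4 in black, 1 gene outside the axes, and equality as the dotted line. Most points lie between -1 and 1 on the y axis, and TXNIP and CRYBA4 lie at the lower right.

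The change from naive cells to N2B27 day 4 was counted here in each experiment against its own naive pair. In Ex1 it comprised 2775 genes (16.6%), 1945 higher and 830 lower at day 4, and in Ex2 3637 genes (21.8%), 2136 higher and 1501 lower. These comparisons share libraries with the naive one, and only their values are set side by side. HSPA8 had a log2 fold change of 0.23 from naive cells to day 4 in Ex1 (adjusted p = 0.072) and of 1.80 in Ex2 (adjusted p = 1.8e-15). KLF17 changed by -0.98 in Ex1 (adjusted p = 0.0015) and by 0.92 in Ex2 (adjusted p = 0.0058), so that the direction differed between the experiments. KLF4 changed by -2.04 in Ex1 (adjusted p = 8.0e-12) and did not pass the test in Ex2 (-0.12, adjusted p = 0.58). SPIC fell in both, by 6.56 and 6.15 on the log2 scale.

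Properties of the transcripts moved with the naive difference. Of the tested genes, 88.7% had a GENCODE transcript to measure. In 5 equal bins of GC content, from 38.5% to 61.4% median GC, the median log2 fold change of naive Ex2 against Ex1 went from -0.126 through -0.092, -0.0148 and 0.0793 to 0.222. At N2B27 day 4 the same bins lay between -0.0214 and 0.000424, and for the coating the bin of highest GC was at -0.116. Longer transcripts were lower, from 0.0845 in the bin of shortest transcripts to -0.118 in the longest, and at day 4 the same bins went from 0.0627 to -0.0676. Genes called higher had a median GC of 56.8% and a median length of 2464.5 bases, genes called lower 46.8% and 3666 bases, and all tested genes 47.7% and 3117 bases. Chromosomes differed too, with medians of 0.16 on chromosome 19, 0.155 on 22 and 0.0886 on 17, and -0.104 on 13. With offsets per library that remove the smooth dependence on GC content and length, chosen after seeing the data, 707 genes were called, 329 higher and 378 lower, 620 of them among the 778. Under those offsets 16 of 23 p53 targets, 10 of 25 ATF4 genes and 27 of 81 ribosomal protein genes rose, and 8 of 9 metallothionein list members, 5 of 7 general and 8 of 21 naive pluripotency markers fell. Their part in the result was otherwise not tested.

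**Figure D5:**
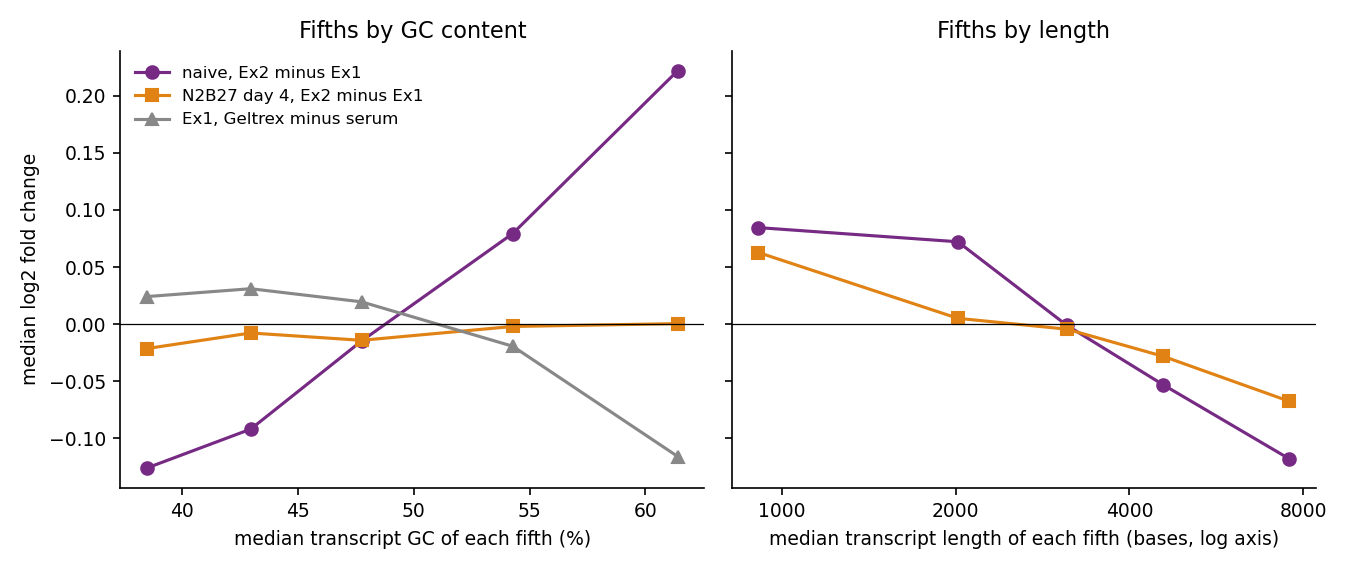
Median log2 fold change in 5 equal bins of the tested genes by transcript GC content (left, percent) and by transcript length (right, bases on a log axis) for naive Ex2 minus Ex1, N2B27 day 4 Ex2 minus Ex1 and, for GC content, Ex1 Geltrex minus serum coating. The naive line climbs from -0.126 to 0.222 with GC content, while the day 4 line stays near 0.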

How the data were processed

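QuantSeq 3′ libraries were made from Shef6 cells. The authors deposited raw counts per gene, and the submitters' processing notes name FastQC 0.11.9, STAR 2.7.10a, Salmon 1.9.0 and hg38. The annotation release of the count table is not given in the sources used here. Groups came from titles and experiment labels. From the deposited counts, 16674 of 57133 genes passed edgeR's filter on low counts (99.6% of counts kept). The quasi-likelihood test of edgeR 4.0.16 (R 4.3.3) was fitted with TMM scaling to all 38 libraries in 19 groups of 2, with Benjamini-Hochberg adjustment, and CPM used the same scaling. Common dispersion was 0.010. Alternatives included DESeq2 1.42.0. The scripts were tested on simulated data. Positions and transcript properties came from GENCODE, and promoters from RefSeq. The members, gene lists and tests were chosen with earlier results of these data known. Named genes were all general and naive pluripotency markers, members of the other lists that were called, those of the 12 strongest rises and 12 strongest falls at 20 CPM or more without overlap, and up to 5 in each direction with the largest difference in CPM. Some items that these rules name are not reported here. Other genes given as examples were chosen after their values were seen. Floors cover counting error only, and intervals of fold changes rest on the moderated spread within all 19 pairs of libraries.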

Additional observations from a re-analysis of the deposited data

Results flagged for a closer look

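Of the 91 named genes, 52 had an experiment difference in naive cells that differed from that at N2B27 day 4 by edgeR's test of the difference itself, with adjusted p of at most 0.0448. The values below are log2 of the naive difference (Ex2 minus Ex1) minus that at day 4, and the groups compared are 2 libraries each. At day 4, 36 of the 52 had the opposite sign from naive cells, and 9 had an adjusted p under 0.05 there. Most named genes were chosen because they were called in naive cells, and the naive difference is one side of this test. The choice therefore largely fixes these counts, which are a description only. Over all 16674 genes tested, 1081 (6.48%) were called in it.

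The difference was positive for 23 genes. The largest were CRYBA4 (4.04), ZC3H6 (3.67), HSPG2 (3.48), TXNIP (2.98), CLDN4 (2.72), BCAS4 (2.32), TNNI3 (2.30), SPRY1 (2.24). Next came MT-TV (2.09), EML2 (2.05), ADM (2.03), PCDH1 (1.93), AMN1 (1.81), ALDOC (1.71), BTG2 (1.68), FDXR (1.49). The smallest were SLC4A7 (1.44), GADD45A (1.32), CD70 (1.30), GDF15 (1.19), ALPG (1.15), CPT1A (1.04), CDKN1A (1.01).

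The difference was negative for 29 genes. The largest in size were MT-TN (-3.74), ETV5 (-2.94), SMG1P4 (-2.60), GATA3 (-2.57), HIST1H2AC (-2.47). Next came FABP5P7 (-2.38), MT-ND6 (-2.06), HIST1H2BA (-1.92), KLF4 (-1.91), KLF17 (-1.90), SRXN1 (-1.77), ID1 (-1.73), PRKAR2B (-1.72). They were followed by EIF5 (-1.71), OTX2 (-1.69), NCOA5 (-1.63), SYNJ2 (-1.62), MIXL1 (-1.58), HSPA8 (-1.57), HIST2H2BF (-1.47), HSPH1 (-1.40). The smallest in size were SMG1P1 (-1.30), JUN (-1.26), CYR61 (-1.24), LEFTY2 (-1.20), AK4 (-1.18), LEFTY1 (-1.10), L1TD1 (-1.10), CD24 (-1.03). Genes at 3 counts or fewer in a group, such as ETV5, have values that depend on the prior count.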

How the results depend on the processing

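Over 15 alternatives, 1276 of 1356 values of named genes kept their direction and side of the threshold, 62 lost the call (most often CCNE2, in 9, and CLDN4, in 7), 2 gained one (KLF4 -1.12 with both coatings pooled, SPIC -1.03 without Ex2 replicate 1) and 16 changed sign, none in a called gene. The cause was not tested. With offsets for GC content and length, chosen after seeing the data, log2 fold changes turned to -0.15 for POU5F1, 0.018 for DPPA4, -0.028 for SUSD2 and 0.027 for ZNF729. With both coatings of Ex1 pooled they turned to -0.16 for POU5F1, -0.059 for TFCP2L1, 0.10 for TFAP2C and -0.055 for SUSD2, and thinning to the lowest total gave -0.018 for OLAH. When 1 library was left out, signs turned within ranges of -0.12 to 0.17 for POU5F1, -0.044 to 0.073 for TFCP2L1, -0.13 to 0.026 for TFAP2C, -0.13 to 0.29 for DPPA5, -0.37 to 0.12 for ZNF729 and -0.13 to 0.25 for OLAH.

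The 778 naive calls were 455 to 680 when 1 library was left out (455 without Ex1 replicate 2, 474 without Ex2 replicate 1), 547 with DESeq2 (523 shared) and 705 with the 4 libraries thinned. The 168 calls at day 4 were 98 with DESeq2, and with plain totals 191 with 27.75% higher against 38.69%. The 1081 calls of the difference were 695 to 983 when 1 library was left out (695 without Ex2 replicate 1, 713 without Ex1 replicate 2). The 8 coating calls were 106 with no filter, 96 in a fit to 10 libraries, 1 thinned and 0 to 11 when 1 library was left out (1 without Ex1 replicate 1). Without Ex1 replicate 2 edgeR gave 0 coating calls with 1395 genes at an unadjusted p under 0.05, and DESeq2 gave 0 with 853.

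With the replicate number as a block the naive comparison gave 779 calls. Same-numbered naive Geltrex libraries of the 2 experiments did not deviate together (correlation of deviations -0.0294 over 9170 genes at 10 CPM or more), and were taken to share only a number. For Geltrex and serum-coated libraries of Ex1 it was 0.185, from 2 pairs, and the coating gave 11 calls with the block. Depth limits genes near 3 counts, and 2 libraries a group limit all calls.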

Other observations

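Other gene groups are given by their counts, beside 7.35% of all genes that rose and 7.86% that fell. Of 19 imprinted genes, 1 fell at an adjusted p under 0.05 and none was called, with a median log2 fold change of 0.00. Of 14 interferon response genes tested, 1 rose, and of 17 genes of the actin cytoskeleton and SRF targets 1 rose, with none called in either list. Of 7 genes of the 8-cell-like list tested, none passed edgeR's test. Among 23 matrix and integrin genes, 2 rose and 3 fell. They included HSPG2, the proteoglycan perlecan, at 0.224 and 0.719 CPM in Ex1 and 5.44 and 3.03 CPM in Ex2 (adjusted p = 1.9e-04) and the integrin subunit ITGAV (log2 fold change -1.10 ± 0.26 SE, adjusted p = 0.0040, but adjusted p = 0.073 without Ex1 replicate 2 and 0.11 without Ex2 replicate 1). Among 12 adhesion genes, the claudin gene CLDN4 was low in both groups at 1.12 and 0.360 CPM in Ex1 and 3.40 and 2.21 CPM in Ex2 (adjusted p = 0.043). CLDN4 lost its call in 7 of 13 alternatives, with an adjusted p of 0.35 without Ex1 replicate 2, 0.25 without Ex2 replicate 1 and 0.072 without Ex2 replicate 2. ACSS2, which makes acetyl-CoA from acetate, rose from 4.03 and 4.13 CPM to 14.3 and 8.82 CPM (log2 fold change 1.48 ± 0.35 SE, adjusted p = 0.0038, but adjusted p = 0.12 without Ex2 replicate 1).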
